A study of Mus musculus with 18 samples.

Results

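The 9 genes described here are chemokines, cytokines and cell markers tied to the entry of neutrophils into liver: Cxcl1, Cxcl2, Ccl2, Il1b, S100a8, S100a9, Cxcr2, Csf3r and Itgam. They were chosen by symbol from the 23930 genes of a targeted amplicon panel, and all 9 symbols were on it. Neutrophils are drawn out of the blood by chemokines that bind the receptor CXCR2, above all CXCL1 and CXCL2 in the mouse, while CCL2 draws monocytes through CCR2. IL-1β, made mainly by macrophages and other myeloid cells, raises chemokine output in neighbouring cells. Neutrophils carry the calcium-binding proteins S100A8 and S100A9 in their cytoplasm, the G-CSF receptor encoded by Csf3r and the integrin subunit encoded by Itgam (CD11b), and their infiltration is a known feature of liver injury by alcohol.

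The libraries came from whole liver of mice with the genotype Yap fl/fl, 3 libraries in each of 6 groups (18 in all). At 8 weeks of age the mice received an adeno-associated virus in which the TBG promoter restricts expression to hepatocytes: AAV-TBG-GFP (control), AAV-TBG-Cre (hepatocyte Yap knockout) or AAV-TBG-YAP-P2A-EGFP (YAP overexpression). The Cre virus was given at 0.5 dose units and the other viruses at 2. Each unit stood for the same large number of genome copies per mouse. This gap in dose cannot be told apart from the deletion where knockout is set against control. Feeding began 2 weeks later, with 5 days on control liquid diet and then 4 weeks on a Lieber-DeCarli diet with ethanol (ethanol-fed) or without (pair-fed), closed by gavage with ethanol at 5 g/kg (33% v/v) or with maltose-dextrin, 9 hours before tissue collection. All groups carried the floxed alleles and a virus, and Yap was manipulated in hepatocytes alone, so non-parenchymal cells, in which most of the 9 genes are transcribed, kept their own Yap. The labels do not say whether each library was a separate mouse, so p-values measure the spread between libraries, which may in part be technical.

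A library held 4.68 to 5.81 M reads, and 1 read came to 0.172 to 0.214 CPM (CPM: a gene's share of its library's reads, put on a common total). The panel reads 1 amplicon per gene, so levels are compared between libraries and not between genes. Hepatocyte markers were abundant in all libraries (5 of the 6 listed genes were on the panel, with a summed 37534 to 78645 CPM). Yap1 stood at 51.5 to 66.6 CPM in the controls, 3.34 to 15.1 CPM in the knockouts and 106.4 to 214 CPM in 5 of the 6 overexpression libraries, while pair-fed overexpression replicate 1 had 57.6 CPM, within the range of the controls. Xist, the RNA that silences an X chromosome in female cells, was read at 348 to 423 CPM in 5 libraries (pair-fed control replicates 2 and 3 and all 3 pair-fed knockouts) and at 0 to 2.75 CPM in the other 13, where the Y-linked gene Ddx3y was present at 54.0 to 128.8 CPM. The ethanol response of knockout mice therefore cannot be told apart from a difference in sex chromosomes, that of control mice is matched only in part, and that of overexpressing mice is matched. Pair-fed comparisons of knockout or overexpression with control are likewise matched only in part, as are both interactions. All ethanol-fed libraries were among those 13.

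Cxcl1 and Cxcl2 lie next to each other on mouse chromosome 5, and their promoters are shown because both chemokines are classical targets of the transcription factor NF-κB, yet only 1 of them was measurable here. The bases are the 250 before the annotated start on the plus strand, from RefSeq (GRCm38.p6), at chr5:90890995-90891244 for Cxcl1 and chr5:90903649-90903898 for Cxcl2. Capitals mark matches to the κB motif, read as GGG, any 3 bases and TTCC, on either strand, with overlapping matches merged.
Cxcl1 promoter: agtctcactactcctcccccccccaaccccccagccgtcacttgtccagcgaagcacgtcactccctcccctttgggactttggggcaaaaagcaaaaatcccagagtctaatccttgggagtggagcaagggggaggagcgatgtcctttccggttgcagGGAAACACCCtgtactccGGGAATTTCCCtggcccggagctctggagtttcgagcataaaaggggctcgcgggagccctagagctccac
Cxcl2 promoter: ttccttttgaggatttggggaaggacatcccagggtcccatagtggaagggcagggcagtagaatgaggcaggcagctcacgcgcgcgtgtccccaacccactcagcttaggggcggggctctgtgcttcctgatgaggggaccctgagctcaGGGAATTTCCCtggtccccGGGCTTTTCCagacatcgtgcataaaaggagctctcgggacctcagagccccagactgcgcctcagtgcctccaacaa
Each promoter held 3 matches. In Cxcl1 they covered bases -89 to -80, -71 to -62 and -70 to -61 counted from the start, and in Cxcl2 bases -97 to -88, -96 to -87 and -78 to -69. The overlapping matches in each form the same stretch, GGGAATTTCCC. A κB match was present in 4.65% of the 32851 promoter windows of that length in the RefSeq table. Of the 8 genes of the set with an entry in the table, Csf3r had 1 match (-129 to -120) and Il1b, S100a8, S100a9, Cxcr2 and Itgam had none in this window. Motifs for AP-1 (TGANTCA) and STAT (TTCNNNGAA) had no match in these 8 windows, against 6.75% and 7.02% of all windows. S100a9 had 1 match to the C/EBP motif TTNNGCAA (9.56% of windows) and Cxcr2 had 1 to the TEAD motif GGAATG (12.6%). S100a8 and S100a9 are likewise neighbours, on chromosome 3. A match describes letters in a window and was not tested as a binding site.

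Of the 9 genes, 7 reached 1 CPM in at least 3 libraries and entered the test, a linear model over all 18 libraries fitted to log2(CPM + 1) with limma for 11720 genes, with a call at a Benjamini-Hochberg adjusted p under 0.05. Cxcl2 and Cxcr2 did not enter it. In the response to ethanol of control livers, 2 of the 7 tested genes were called, Cxcl1 and Il1b, both higher. Over all tested genes, 2.7% were called in that comparison and 1.02% were called higher. In knockout livers 1 of the 7, Cxcl1, was called higher, against 9.9% of all genes called and 4.1% called higher. In overexpressing livers limma and edgeR each called 0 of the 7 (2 had an unadjusted limma p under 0.05, against 14.5% of all genes), beside 1.15% of all genes called and 0.401% called higher. The median log2 fold change of the 7 was 1.23 in control, 0.45 in knockout and 0.59 in overexpressing livers, and that of all tested genes was -0.09, -0.05 and -0.07. The control median was the value of S100a9, which had 18.7 CPM in ethanol-fed control replicate 1 and 1.93 and 0.521 CPM in replicates 2 and 3. Over the alternative settings and libraries left out, that value ran from 0.15 to 3.01. A difference between the medians was not tested. The 3 responses rest on different libraries, but the comparisons between genotypes below reuse them, so that results across comparisons are not independent.

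**Figure D1:**
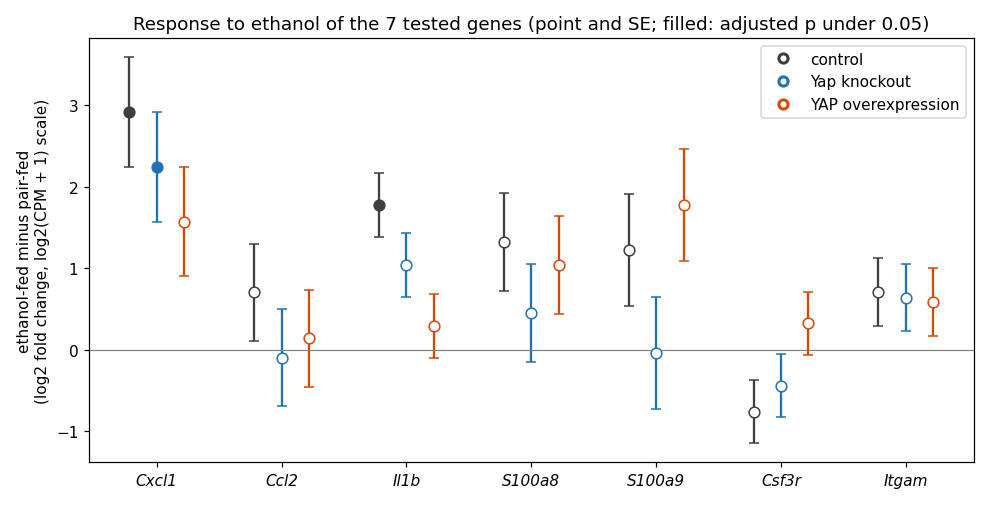
Ethanol-fed minus pair-fed difference (log2 fold change on the log2(CPM + 1) scale, vertical axis) of the 7 tested genes in control, knockout and overexpressing livers, as points with SE bars; filled points have an adjusted p under 0.05. Cxcl1 lies highest in control (2.92) and knockout (2.25), while S100a9 (1.78) lies above Cxcl1 (1.57) in overexpression.

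Cxcl1 encodes the main CXCR2 ligand of mouse liver and was read 24 to 960 times per library. Pair-fed control libraries had 5.95, 4.38 and 6.885 CPM, and ethanol-fed control libraries 171, 67.0 and 9.89 CPM. The groups did not overlap, but the third ethanol-fed library lay far nearer to the pair-fed ones than the other 2 did. The difference was 2.92 ± 0.67 (log2 fold change ± SE, limma adjusted p = 0.0237), and edgeR on the recovered reads gave 3.94 (adjusted p = 0.00926). Without ethanol-fed control replicate 1 the difference was 2.03 (limma adjusted p = 0.0859), and without replicate 3 it was 4.02. A term for Xist above Ddx3y or not gave 2.86 with a limma adjusted p of 0.278, and among libraries with Y-linked reads alone, which leave 1 pair-fed control, 2.86 with an adjusted p of 0.312.

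In knockout livers Cxcl1 stood at 6.16, 7.91 and 10.45 CPM in the pair-fed and 30.6, 24.5 and 96.5 CPM in the ethanol-fed libraries. The highest pair-fed library was below the lowest ethanol-fed one. The difference was 2.25 ± 0.67 (limma adjusted p = 0.0404; edgeR 2.72, adjusted p = 0.0217), and it was not called without ethanol-fed knockout replicate 3 (1.66, limma adjusted p = 0.144) or with the sex chromosome term (2.16, limma adjusted p = 0.742). In the same ethanol-fed knockout libraries the resident macrophages' markers were lower: 8 of the 10 tested Kupffer cell markers of 11 listed were called lower (5.79% of all genes were), among them Vsig4 (-1.70) and Clec4f (-1.34), and their summed level was 166 to 214 CPM against 477 to 593 CPM in pair-fed knockouts. With the sex chromosome term limma called 0 of the 11720 genes in the knockout response (850 had an unadjusted p under 0.05) and 23 in that of control, so the knockout calls of marker and pathway genes given here were lost under it like that of Cxcl1. The part of the Kupffer cell shift in the levels of Cxcl1 was not tested, and fewer cells of a type cannot be told apart from less RNA per cell in whole liver.

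Overexpressing livers had more Cxcl1 on the pair-fed diet, with 16.8, 29.7 and 29.2 CPM, than any of the 6 pair-fed libraries of the other genotypes (4.38 to 10.45 CPM). Of those 6, pair-fed control replicate 1 (5.95 CPM) alone matched the overexpressing libraries in Xist and Ddx3y. The gap in Cxcl1 was thus matched in sex chromosomes only in part. Against pair-fed control the difference was 1.94 ± 0.67, with an unadjusted limma p of 0.00977 and an adjusted p of 0.388, and so was not called. Pair-fed overexpression replicate 1, the library with Yap1 in the range of the controls, had the lowest of the 3 values. The ethanol-fed overexpressing libraries had 46.2, 135 and 67.2 CPM, all above their pair-fed libraries, and the difference of 1.57 ± 0.67 had a limma adjusted p of 0.283. A fit to those 6 libraries alone gave the same difference with an SE of 0.35 and an adjusted p of 0.0432. Of the ethanol-fed overexpressing libraries, replicate 1 had the most Yap1 (143.7 CPM) and the least Cxcl1. A link between the levels of Yap1 and Cxcl1 was not tested.

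By group mean, Cxcl1 ran from 5.74 ± 1.27 CPM in pair-fed control through 8.17 ± 2.16 in pair-fed knockout, 25.2 ± 7.28 in pair-fed overexpression, 50.5 ± 39.9 in ethanol-fed knockout and 82.6 ± 81.7 in ethanol-fed control to 82.7 ± 46.3 CPM in ethanol-fed overexpression (SD, n = 3). Of the neighbours in this order, pair-fed knockout and pair-fed overexpression alone did not overlap. Between ethanol-fed groups the differences were -0.23 for knockout against control, 0.59 for overexpression against control and 0.83 ± 0.67 for overexpression against knockout, with limma adjusted p-values of 0.959, 0.889 and 0.621. The ethanol response was -0.67 ± 0.95 in knockout and -1.34 ± 0.95 in overexpression relative to that of control (limma adjusted p = 0.956 and 0.846), so the responses of the genotypes were not shown to differ.

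**Figure D2:**
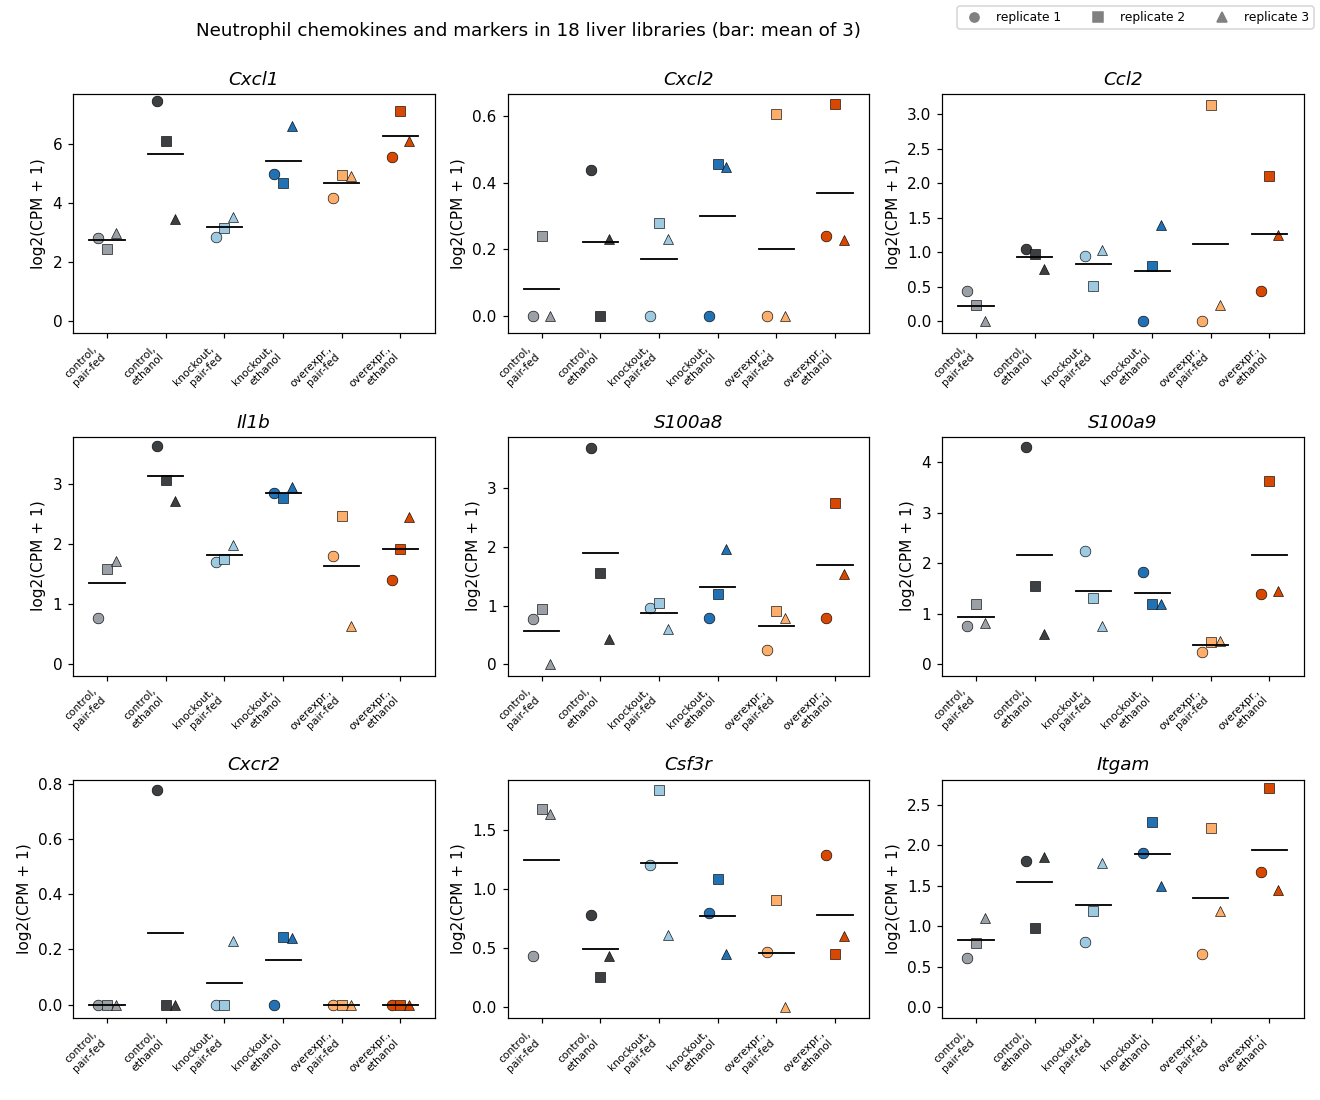
Level of each of the 9 genes in every library (vertical axis, log2(CPM + 1), scaled separately for each gene) by group, with circles, squares and triangles for replicates 1, 2 and 3 and a bar at the mean of the 3 log2 values. Cxcl1 and Il1b separate ethanol-fed from pair-fed control libraries, and Cxcl2 and Cxcr2 stay near 0. S100a8 and S100a9 are carried by replicate 1 in ethanol-fed control. In overexpression all ethanol-fed libraries lie above the pair-fed ones for S100a9, with replicate 2 highest.

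Cxcl2, the neighbouring gene and the other main CXCR2 ligand, was barely read. It had 18 reads over all libraries, at least 1 in 11 of them and at most 3 in any (0.553 CPM). The 3 ethanol-fed overexpressing libraries each had at least 1 read (0.172 to 0.553 CPM). A count of 0 allows up to 3 reads (0.517 to 0.641 CPM by library, counting error alone), and since no library held more than that, no difference was detectable at this depth. The wider list of CXCR2 ligands and cytokines of neutrophil production (10 genes, all on the panel) had 3 tested members, of which Cxcl1 alone was called, in control and knockout livers. Cxcl3 and Cxcl15 had no read in any library. Ppbp, a CXCR2 ligand stored in platelets, had 41 reads in ethanol-fed control replicate 1 (7.30 CPM) and 0 to 9 in the other 17 libraries.

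Il1b encodes IL-1β and was read 3 to 64 times per library. Pair-fed control libraries had 0.70, 2.01 and 2.295 CPM, and ethanol-fed control libraries 11.4, 7.34 and 5.55 CPM. The groups did not overlap, and the difference was 1.78 ± 0.40 (limma adjusted p = 0.0204; edgeR 2.37, adjusted p = 0.0228). It was 1.53 without ethanol-fed control replicate 1 (limma adjusted p = 0.0688) and 1.48 without pair-fed control replicate 1 (0.0762), and 2.37 with the sex chromosome term (0.0869).

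In knockout livers Il1b stood at 2.24, 2.35 and 2.96 CPM in pair-fed and 6.23, 5.75 and 6.71 CPM in ethanol-fed libraries. The groups again did not overlap, while the difference of 1.04 ± 0.40 did not pass the test (limma adjusted p = 0.10). This level stood beside the lower Kupffer cell markers of the same libraries, whose part in it was not tested. In overexpressing livers the pair-fed libraries had 2.46, 4.52 and 0.550 CPM and the ethanol-fed ones 1.625, 2.76 and 4.48 CPM, overlapping throughout (0.29 ± 0.40, limma adjusted p = 0.799).

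By group mean Il1b ran from 1.67 ± 0.850 CPM in pair-fed control through 2.51 ± 1.99 in pair-fed overexpression, 2.52 ± 0.388 in pair-fed knockout, 2.96 ± 1.44 in ethanol-fed overexpression and 6.23 ± 0.478 in ethanol-fed knockout to 8.10 ± 3.00 CPM in ethanol-fed control (SD, n = 3). Of the neighbours in this order, ethanol-fed overexpression and ethanol-fed knockout alone did not overlap. Il1b was at 5.55 to 11.4 CPM in the 6 ethanol-fed control and knockout libraries and at or below 4.52 CPM in the other 12. The ethanol-fed overexpressing libraries lay below all ethanol-fed control libraries (-1.22 ± 0.40, limma adjusted p = 0.295) and below all ethanol-fed knockout libraries (-0.93 ± 0.40, adjusted p = 0.258), neither of them called. The response to ethanol differed from that of control by -1.49 ± 0.56 in overexpression (limma adjusted p = 0.550) and by -0.73 ± 0.56 in knockout (adjusted p = 0.936), also not called. In these ethanol-fed overexpressing libraries the Kupffer cell markers summed to 376 to 407 CPM, within the 281 to 553 CPM of ethanol-fed control. Of 14 listed genes of the IL-1 system and the inflammasome, 13 were tested and Il1b alone was called, in control livers. The median of the 13 was 0.38 in control, 0.01 in knockout and -0.03 in overexpression. Casp1, which encodes the protease that matures IL-1β, had the smallest adjusted p of that list in knockout livers (-1.08 ± 0.35, limma adjusted p = 0.0603).

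**Figure D3:**
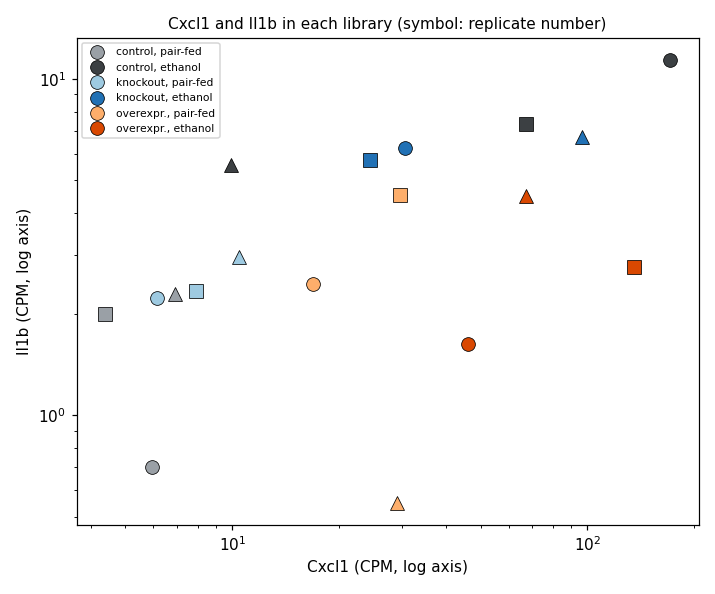
Cxcl1 (horizontal, CPM on a log axis) against Il1b (vertical, CPM on a log axis) in each of the 18 libraries, coloured by group, with circles, squares and triangles for replicates 1, 2 and 3. The 3 ethanol-fed overexpressing libraries have Cxcl1 at 46.2 to 135 CPM with Il1b at 1.625 to 4.48 CPM, and ethanol-fed control replicate 3 has Il1b at 5.55 CPM with Cxcl1 at 9.89 CPM.

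Ccl2, the ligand of the monocyte receptor CCR2, had 0 to 45 reads per library. Pair-fed control libraries had 0.350, 0.182 and 0 CPM and ethanol-fed ones 1.07, 0.966 and 0.694 CPM, which did not overlap (0.70 ± 0.60, limma adjusted p = 0.576), at 0 to 2 against 4 to 6 reads. Pair-fed knockout libraries (0.427 to 1.045 CPM) also lay above all pair-fed controls. Pair-fed overexpression had 0, 7.83 and 0.183 CPM, so that its mean of 2.67 ± 4.47 CPM came from replicate 2 alone. That library was also the highest of all 18 for 8 of the 11 genes with reads on a list of CCR2 ligands and monocyte genes. It had 45 reads of Ccl2, 30 of the receptor gene Ccr2, 26 of Ccl3 and 49 of Ccl5 (the last 3 named after their values were seen), and the share of monocytes in its Ccl2 was not tested. It stood apart for other cell types too. Of all 18 libraries it had the highest summed markers of cholangiocytes (114.9 CPM, next 47.8), Kupffer cells (620 CPM, next 593), stellate cells (476 CPM, next 415), sinusoidal endothelium (473 CPM, next 378), T cells (7.48 CPM, next 4.92) and NK cells (5.91 CPM, next 5.22), and the lowest of hepatocytes (37534 CPM, next 37728). No member of that list (12 listed, 6 tested) was called by limma in any of the 3 ethanol responses, and 0 of the 6 had an unadjusted p under 0.05 in them.

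S100a8 and S100a9, which encode the subunits of calprotectin, were high in single libraries. S100a8 stood at 0.70, 0.912 and 0 CPM in pair-fed control and 11.9, 1.93 and 0.347 CPM in ethanol-fed control (67, 10 and 2 reads). S100a9 stood at 0.70, 1.28 and 0.765 CPM in pair-fed control and 18.7, 1.93 and 0.521 CPM in ethanol-fed control (10 reads in replicate 2 and 3 in replicate 3). In both genes ethanol-fed control replicate 1 was far above its group. Replicate 3 lay among the pair-fed control libraries for S100a8 and below all of them for S100a9. The differences of 1.32 ± 0.60 for S100a8 (limma adjusted p = 0.252) and 1.23 ± 0.69 for S100a9 (0.359) did not pass the test.

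In knockout livers S100a8 was at 0.523 to 1.07 CPM pair-fed and 0.733 to 2.90 CPM ethanol-fed, and S100a9 at 0.697 to 3.73 and 1.27 to 2.56 CPM, with overlap in both. In overexpression S100a9 had 0.189, 0.348 and 0.367 CPM in pair-fed libraries (1 to 2 reads each) and 1.625, 11.4 and 1.72 CPM in ethanol-fed ones (9, 62 and 10 reads), without overlap, at a difference of 1.78 ± 0.69 (limma adjusted p = 0.229). S100a8 had 0.189 to 0.870 CPM in pair-fed and 0.722, 5.71 and 1.895 CPM in ethanol-fed overexpression. Ethanol-fed overexpression replicate 2 was the highest of its group for both genes. Over the 18 libraries the log2 levels of S100a8 and S100a9 had a Pearson correlation of 0.86 (Spearman 0.69). Those of Cxcl1 and S100a8 had 0.77 (Spearman 0.62). These were the highest Pearson values among pairs of the tested genes. Cxcl1 and S100a9 had 0.57. Csf3r, the other tested neutrophil marker of the set, had -0.46 with Cxcl1, -0.20 with S100a8 and 0.04 with S100a9. All are descriptions over libraries that share their groups.

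The other neutrophil markers were mixed. The list of neutrophil markers held 12 genes, 4 of them in the set, and 11 had at least 1 read. Mpo, which encodes the myeloperoxidase made by neutrophil precursors, had 0 reads in all 18 libraries, and Ly6g and Elane had 1 read each in all. Of the 11, 6 were highest in ethanol-fed control replicate 1: S100a8, S100a9 and Cxcr2 of the set, Ly6g with its single read, Retnlg (45 reads) and Mmp8 (23 reads). Csf3r, Ngp, Camp, Ltf and Elane were highest in other libraries. Ngp, the gene of a granule protein, had 18 reads in pair-fed and 3 in ethanol-fed control. This drop was not seen in the other genotypes. Knockout libraries had 0, 0 and 0 reads of Ngp pair-fed and 0, 3 and 1 ethanol-fed. Overexpressing libraries had 0, 2 and 0 pair-fed and 1, 3 and 0 ethanol-fed. Camp and Ltf had 11 and 4 reads in all 18 libraries. The 8 markers outside the set had 72 summed reads in ethanol-fed control replicate 1, 21 in ethanol-fed overexpression replicate 2 and 1 to 14 in each of the other 16 libraries. The summed level of all 12 was 2.975 to 6.75 CPM in pair-fed control, 1.91 to 44.9 in ethanol-fed control, 3.31 to 7.47 in pair-fed knockout, 5.495 to 6.89 in ethanol-fed knockout, 1.325 to 2.96 in pair-fed overexpression and 4.69 to 21.4 CPM in ethanol-fed overexpression. Ethanol-fed control replicate 1, which was also highest for Cxcl1 and Il1b, stood apart in other lists as well. Its Kupffer cell markers summed to 553 CPM against 281 and 300.0 CPM in the other 2 libraries of its group, and its platelet markers to 18.5 CPM, the highest of all 18 (next 8.35 CPM). The part of these cells in the levels of Cxcl1 and Il1b was not tested. Prtn3, the gene of a granule protease, chosen for mention after its values were seen, had 23.5 CPM in ethanol-fed control replicate 1, 6.26 and 5.34 CPM in ethanol-fed overexpression replicates 2 and 3 and 0 to 1.28 CPM elsewhere.

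**Figure D4:**
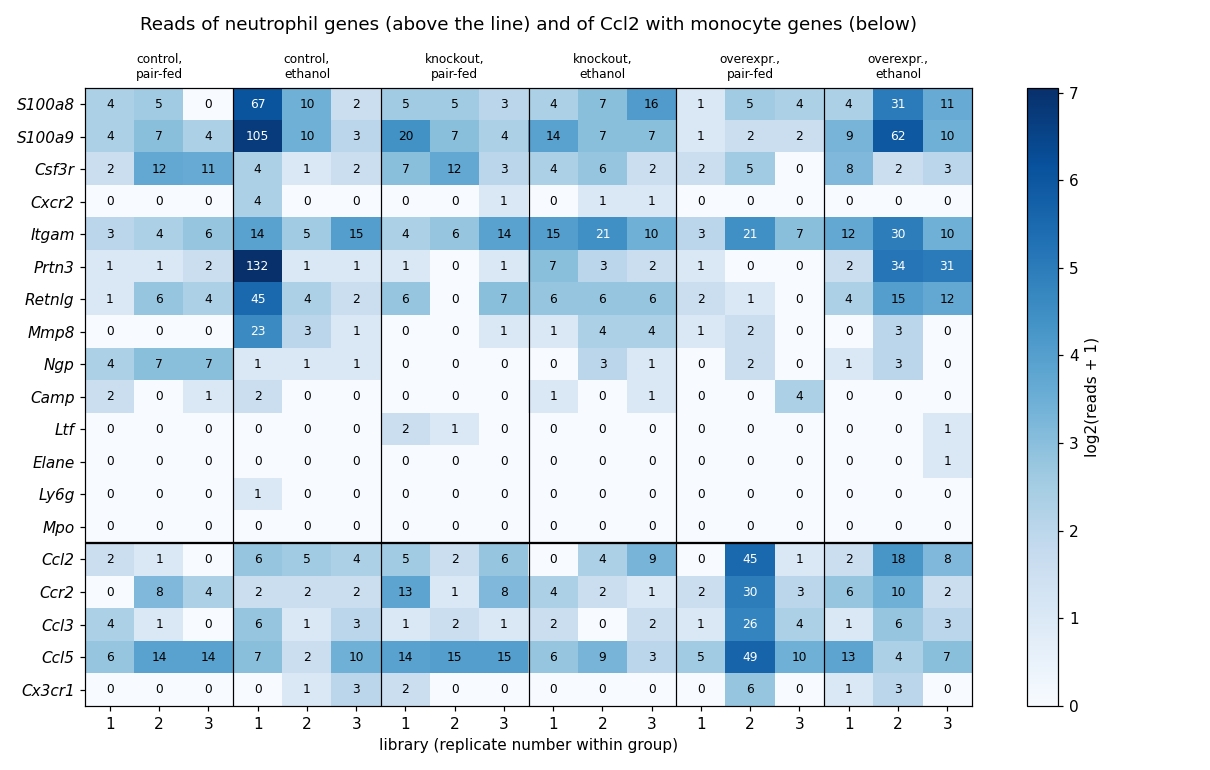
Whole reads of neutrophil genes (above the line) and of Ccl2 with monocyte genes (below it) in each of the 18 libraries, 3 columns per group, shaded by log2(reads + 1). S100a8, S100a9, Prtn3, Retnlg and Mmp8 are highest in ethanol-fed control replicate 1, and Ccl2, Ccr2, Ccl3 and Ccl5 in pair-fed overexpression replicate 2.

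The receptors gave few reads. Cxcr2, the receptor of CXCL1 and CXCL2, had 7 reads over all libraries, 4 of them in ethanol-fed control replicate 1 (0.713 CPM), and 0 in 14 libraries, so no difference was detectable at this depth. Csf3r, which encodes the G-CSF receptor needed for neutrophil production, had 0 to 12 reads per library. It stood at 0.350, 2.19 and 2.10 CPM in pair-fed control and 0.713, 0.193 and 0.347 CPM in ethanol-fed control, at a difference of -0.76 ± 0.39 (limma adjusted p = 0.309). In that fit its sign was opposite to those of the other 6 tested genes in control livers. The higher pair-fed values came from replicates 2 and 3, which carried Xist. Replicate 1, matched to the ethanol-fed controls in Xist and Ddx3y, had 0.350 CPM, within their 0.193 to 0.713 CPM. Over the alternative settings and libraries left out the difference ran from -1.72 to 0.05, so its sign did not hold under each. The highest library for Csf3r was pair-fed knockout replicate 2 (2.56 CPM, 12 reads), which also carried Xist, not an ethanol-fed one. In pair-fed overexpression Csf3r had 0.379, 0.870 and 0 CPM.

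Itgam encodes CD11b, the α subunit of an integrin shared by neutrophils, monocytes and macrophages, so it marks more than neutrophils. It had 3 to 30 reads per library, at 0.525, 0.730 and 1.15 CPM in pair-fed control and 2.49, 0.966 and 2.60 CPM in ethanol-fed control. The groups overlapped, and the differences were alike in size in the 3 genotypes, with 0.71 ± 0.41 in control, 0.64 ± 0.41 in knockout and 0.59 ± 0.41 in overexpression (limma adjusted p = 0.381, 0.346 and 0.560). Ethanol-fed overexpression replicate 2 had its highest level (5.53 CPM). Of 13 genes for adhesion molecules and integrin partners, 11 were tested. Pecam1, an adhesion molecule of endothelium and platelets, was called higher in control livers (31.7 ± 4.99 to 54.9 ± 4.29 CPM, 0.78 ± 0.20, limma adjusted p = 0.0421), and Cd44, a hyaluronan receptor of leukocytes, lower in knockout livers (20.6 ± 6.48 to 8.62 ± 1.87 CPM, -1.14 ± 0.29, adjusted p = 0.0175).

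Between genotypes on 1 diet, limma and edgeR each called 0 of the 7 genes in all 5 comparisons. An unadjusted limma p under 0.05 was reached by 0 of the 7 for knockout against control, pair-fed (3.13% of all genes) and ethanol-fed (8.34%). It was reached by 1 for overexpression against control pair-fed (Cxcl1; 8.46%), by 1 ethanol-fed (Il1b; 8.84%) and by 1 for overexpression against knockout ethanol-fed (Il1b; 15.4%). Over all genes 0.00853% were called for knockout against control pair-fed, 0.0171% ethanol-fed, 0.145% for overexpression against control pair-fed, 0.102% ethanol-fed and 1.88% for overexpression against knockout ethanol-fed. In both interactions 0 of the 7 and 0% of all genes were called by limma, with 0 of the 7 for knockout (5.68% of all genes) and 1 for overexpression (Il1b; 7.23%) at an unadjusted p under 0.05, and edgeR called 0 of the 7 in each. Groups that did not overlap were counted too. Of the 7 genes, 3 were wholly higher in ethanol-fed control (7.69% of all genes), 2 in ethanol-fed knockout (11.7%) and 2 in ethanol-fed overexpression (7.83%). Between genotypes, Ccl2 was wholly higher in pair-fed knockout than in pair-fed control (3.84% of all genes), Cxcl1 wholly higher (6.27%) and S100a9 wholly lower (7.57%) in pair-fed overexpression than in pair-fed control, and Il1b wholly lower in ethanol-fed overexpression than in ethanol-fed control (7.54%) and ethanol-fed knockout (12.5%). The pair-fed comparisons among them were matched in sex chromosomes only in part.

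Among pathway genes outside the set, the list of 31 neutrophil granule and receptor genes (27 on the panel, 9 tested) held 1 gene called in an ethanol response. Hdc, which encodes the enzyme that makes histamine, was called higher with ethanol in control livers (1.14 ± 0.708 to 6.57 ± 1.93 CPM, 1.84 ± 0.34, limma adjusted p = 0.00805) and in knockout livers (1.34 ± 0.142 to 5.75 ± 2.40 CPM, 1.46 ± 0.34, adjusted p = 0.0112). In overexpression it was at 2.65 ± 0.711 and 2.60 ± 1.27 CPM, and the interaction with overexpression was -1.90 ± 0.48 (limma adjusted p = 0.211). Among ethanol-fed controls, Hdc was lowest in replicate 1 (4.63 CPM, against 8.50 and 6.59), the library highest for S100a8 and S100a9. The cell type that Hdc came from was not tested. Wfdc21 of the same list was called higher in ethanol-fed overexpression than in ethanol-fed knockout (1078 ± 201 against 564 ± 15.5 CPM, 0.92 ± 0.20, limma adjusted p = 0.0201). It was read at 546 to 1219 CPM in every library, pair-fed ones included. The cell type it came from was not tested, so it is not given as a sign of neutrophils. The 8 tested genes of the list other than Hdc were not called in any of the 3 ethanol responses. In overexpression, Mmp9 had the smallest adjusted p of the list (1.04 ± 0.36, limma adjusted p = 0.164). It was at 0.189, 0.348 and 0.183 CPM in pair-fed and 1.44, 1.66 and 1.55 CPM in ethanol-fed overexpressing libraries. In control and in knockout livers its pair-fed and ethanol-fed values overlapped.

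Signalling genes around these chemokines were described by list. Of 17 genes of TNF, TLR4 and NF-κB feedback (12 tested), Rela, an NF-κB subunit, was called higher with ethanol in knockout livers (55.2 ± 7.40 to 118 ± 29.0 CPM, 1.06 ± 0.26, limma adjusted p = 0.0140) and Tnfaip2, a gene induced by TNF, in overexpressing livers (17.1 ± 11.8 to 65.7 ± 24.6 CPM, 2.00 ± 0.47, adjusted p = 0.0450). None of the list was called in control livers, where Lbp, which carries lipopolysaccharide to its receptor, had the smallest adjusted p (0.69 ± 0.28, limma adjusted p = 0.199). Of 10 genes of STAT3 and G-CSF receptor signalling (9 tested), Stat3 was called higher in control (170 ± 32.8 to 402 ± 93.7 CPM) and knockout livers (202 ± 15.7 to 370 ± 33.6 CPM). Lcn2, an acute phase gene made by hepatocytes and also stored in neutrophil granules, was called higher in all 3 genotypes, by 4.57 ± 0.86, 5.48 ± 0.86 and 4.81 ± 0.86 in control, knockout and overexpression. Jak2, the kinase of cytokine receptors, was called lower in knockout livers (-0.92 ± 0.26, limma adjusted p = 0.0315). The IL-1, STAT3 and NF-κB lists had medians between -0.16 and 0.38 in the 3 responses, against -0.09 to -0.05 for all genes.

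The genes most like each chemokine in their log2 levels over the 18 libraries were sought among tested genes with a mean of at least 5 CPM. For Cxcl1 they were Junb, an immediate early AP-1 gene (Pearson r = 0.89), Slc41a1 (0.86) and Tacc1 (0.85). For Il1b they were Dusp6, a phosphatase of ERK kinases (0.86), Heg1 (0.84) and Cd14, the co-receptor for bacterial lipopolysaccharide on myeloid cells (0.84). For Ccl2 they were Pld3 (0.86), Tmem176b (0.81) and Mfge8 (0.81). For S100a8 they were Wdr55 (0.92), Dnajc12 (0.80) and Rrbp1 (0.79), for S100a9 Rrbp1 (0.84), Fgl1 (0.79) and Il13ra1 (0.78), and for Itgam Tiprl (0.82), Gmfb (0.80) and Cd63 (0.80). These are the highest of many correlations over libraries that share groups, and they are descriptions.

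**Figure D5:**
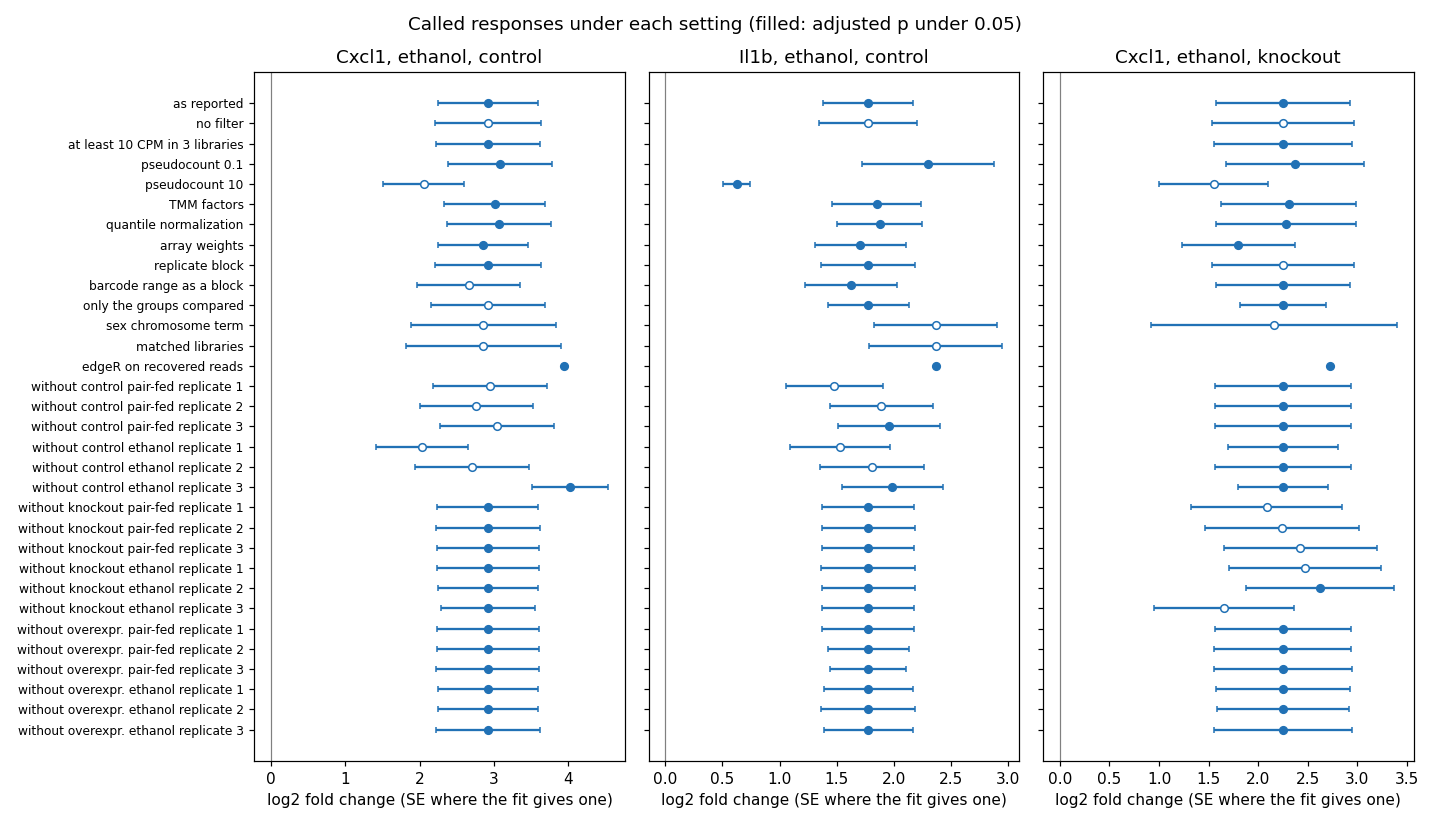
Log2 fold change (horizontal axis, SE bars where the fit gives one) of Cxcl1 and Il1b in control livers and of Cxcl1 in knockout livers, with 1 line per analysis setting or library left out; filled points have an adjusted p under 0.05. All points lie above 0, from 2.03 to 4.02 for Cxcl1 in control with a library left out, and open points show where the call was lost.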

How the data were processed

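Liver RNA was measured with the Ion AmpliSeq mouse transcriptome panel, per the labels' protocols. The authors deposited a table of CPM for 23930 genes, scaled to the library total alone, and per-library files with log2 values of the same levels, which per the file headers were made with ampliSeqRNA 5.10.1.2. These log2 values equalled log2(CPM + 1) within 2.0e-06. Neither aligner nor build is named (not given in the sources used here), and gene coordinates are not printed except for RefSeq promoters. Multiplied by the library total, 100% of CPM values were whole reads within 0.02 reads.

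The 11720 genes that reached 1 CPM in 3 or more of the 18 libraries were kept. A linear model with 6 group means was fitted to log2(CPM + 1), with a pseudocount of 1 that understates changes of low genes, in R 4.3.3 by lmFit and eBayes with a trend (limma 3.58.1), and 10 contrasts were tested two-sided with Benjamini-Hochberg adjustment within each at 0.05. The pipeline was tested on simulated data. The quasi-likelihood test of edgeR 4.0.16 with TMM factors (0.927 to 1.12) on the recovered reads called 284, 1261 and 136 genes in the ethanol responses of control, knockout and overexpression, against 316, 1160 and 135 for limma. These counts moved more elsewhere: with the sex chromosome term limma called 23, 0 and 165, with library weights 537, 2235 and 505, without ethanol-fed control replicate 2 49 in control, without pair-fed knockout replicate 2 621 in knockout, and without ethanol-fed overexpression replicate 2 17 in overexpression, so the shares of all genes called depend on the setting. The split of limma calls into higher and lower moved with the scaling: it was 120 and 196 in control, 481 and 679 in knockout and 47 and 88 in overexpression, and with TMM factors 172 and 120, 687 and 568, and 78 and 51. The other alternatives were the filter, the pseudocount (0.1 and 10), TMM and quantile scaling, library weights, a block for the replicate number or the barcode range, a fit to the compared libraries alone, a sex chromosome term (Xist above Ddx3y or not), libraries matched on it, and each library left out.

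The 9 genes, the gene lists and the alternatives were chosen with earlier results of these data known. Named genes are the 9 in each comparison and, of each list, up to 4 called members with the smallest adjusted p, or its member with the smallest where none was called, plus genes chosen after their values were seen: Prtn3, Ccr2, Ccl3, Ccl5, and the listed genes named for having few or no reads or for the library where they were highest (Mpo, Ly6g, Elane, Retnlg, Mmp8, Ngp, Camp, Ltf, Cxcl3 and Cxcl15). Reads of the panel are not independent molecules, so limits from counts cover counting error alone. Of the listed symbols, 10 were not matched on the panel (Stfa2, Stfa2l1, Chil3, Mrgpra2b, Ackr1, Ly6c2, Nfkb1, Cd79a, Hbb-bt and Serpina1a). Of the 9 genes, 8 matched the RefSeq promoter table by symbol (not Ccl2).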

Additional observations from a re-analysis of the deposited data

How the results depend on the processing

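In control livers, where 2 of the 7 genes were called with ethanol, 0 were called with no filter on low values, 0 with the sex chromosome term and 0 among matched libraries; 1 was called at a filter of 10 CPM in 3 libraries (Cxcl1; Il1b was not tested there), and 1 (Il1b) with a pseudocount of 10, with the barcode range as a block and in a fit to the compared groups alone. In knockout livers, where 1 was called, 0 were called with no filter, a pseudocount of 10, the replicate block or the sex chromosome term, and no matched value exists because the 3 pair-fed knockout libraries all carried Xist. In overexpressing livers, where 0 were called, 1 (Cxcl1) was called in a fit to the compared groups alone. The other 7 comparisons, both interactions among them, had 0 called under each setting that could be run. Leaving out 1 library at a time gave 0 to 2 called genes in control and 0 to 1 in knockout livers. The call of Cxcl1 in control was lost without any 1 of the 3 pair-fed control libraries or without ethanol-fed control replicate 1 or 2, and that of Il1b without pair-fed control replicate 1 or 2 or ethanol-fed control replicate 1 or 2. The call of Cxcl1 in knockout was lost without any 1 of the pair-fed knockout libraries or without ethanol-fed knockout replicate 1 or 3. The log2 fold changes with a library left out were 2.03 to 4.02 for Cxcl1 in control, 1.48 to 1.99 for Il1b in control and 1.66 to 2.62 for Cxcl1 in knockout, and none of these 3 changed sign under any setting. Apart from the settings' own change in the libraries or genes fitted, the cause of a lost call was not tested. The replicate number as a block kept the 2 calls in control, but the numbers did not pair the libraries: of 45 same-numbered pairs of libraries from different groups, 6 had a correlation of deviations from their group means over 0.1 (median 0.0287, range -0.267 to 0.279). Depth limited Cxcl2 and Cxcr2, with 18 and 7 reads in all libraries.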

Other observations

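Of 6 markers of sinusoidal endothelium, the surface that neutrophils cross in liver, 2 were called higher with ethanol in control livers, Lyve1 and Pecam1, and the other 4 had log2 fold changes below 0 (median of the 6, -0.40). In knockout livers Lyve1 alone was called and 4 were below 0 (median -0.40). Lyve1, a hyaluronan receptor of that endothelium, was called higher with ethanol in control livers (2.45 ± 0.48, limma adjusted p = 0.0107) and in knockout livers (1.84 ± 0.48, adjusted p = 0.0198). In ethanol-fed knockout livers, Cd3g of T cells (-1.02 ± 0.31, limma adjusted p = 0.0437) and Gzma of NK cells (-1.33 ± 0.35, adjusted p = 0.0199) were called lower, beside the lower Kupffer cell markers. Both calls rest on few reads. The T cell markers together had 6 to 17 reads per ethanol-fed and 21 to 23 per pair-fed knockout library. The NK cell markers had 1 to 6 and 17 to 30. With the sex chromosome term 0 genes were called in knockout livers, so the calls of Lyve1, Cd3g and Gzma there were lost. In control livers the term left 23 genes called, against 316 without it. The control calls given here for genes outside the set are those without the term.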
